A study of Cricetulus griseus with 6 samples.

Results

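The comparison described here is that of HER2-overexpressing hamster cells treated with trastuzumab + pertuzumab against the same cells treated with pertuzumab alone, so that the members are the log2 signals of all 29700 transcripts on 2 of the 6 arrays of the study. CHO-K1 is the parental Chinese hamster ovary line, and CHO-K6 was derived from it by stable overexpression of human HER2. The labels give 6 conditions with 1 array each, and trastuzumab + pertuzumab are called the combination below. CHO-K1 was measured without antibody and with the combination, and CHO-K6 without antibody, with each of trastuzumab and pertuzumab alone, and with the combination. All cells were kept for 24 h in medium with 1% FBS and then for 24 h in medium with 10% FBS, to which the antibodies were added at 10 µg/mL. Whether the combination held that amount of each antibody or of both together is not stated in the labels. CHO-K6 is 1 clonal line and no control IgG array was used here, so antibody treatment was compared with no antibody and not with an unrelated one. Because every condition has 1 array, no p-value, standard error or false discovery rate could be computed, and the words higher and lower describe these arrays only. RNA was taken from whole cultures, where less RNA per cell and fewer cells expressing a gene cannot be told apart.

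HER2 (ErbB2) is a receptor tyrosine kinase of the epidermal growth factor receptor family that has no known ligand of its own and signals as a dimer with itself or with another family member, chiefly through the PI3K/AKT and RAS/ERK pathways. Trastuzumab binds its extracellular domain next to the membrane, whereas pertuzumab binds the arm through which the receptor pairs with its partners. The epitopes are separate, and both antibodies can occupy the same receptor. The comparison asks what differs in gene expression when cells receive trastuzumab together with pertuzumab, rather than pertuzumab alone. Both antibodies of the combination were given in the same fresh medium, and the word added is used below in that sense. The 4 CHO-K6 arrays form a layout in which trastuzumab was added with and without pertuzumab, so the difference between the combination and pertuzumab could be set beside that between trastuzumab and the untreated array, with which it shares no array.

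The 6 arrays had median log2 signals of 5.89 to 5.91, and 48.8% to 49.0% of transcripts reached a log2 signal of 6, the level used here to separate brighter from dimmer transcripts. The labels call the cells epithelial. Of 11 epithelial markers 5 were measured and 0 had a mean log2 signal of at least 6 over the combination and pertuzumab arrays, with Epcam at 4.44, Krt8 at 4.59 and the brightest, Cdh1, at 5.91 in the combination array. In contrast, 8 of 9 measured mesenchymal markers reached it, and Vim was at 13.27 there. Summed over the list, the linear signal of the epithelial markers was 138 to 177 per array and that of the mesenchymal markers 19400 to 20500. The summed signal of 6 ovarian somatic markers was 654 with pertuzumab and 564 with the combination, against 585 in the untreated and 555 in the trastuzumab array. Its part in the differences below was not tested. Among the CHO-K6 arrays, pertuzumab stood apart from the other 3. Over the 29700 transcripts, the trastuzumab array differed 2-fold from the untreated array in 29 transcripts, the combination array differed so in 35 transcripts from the untreated and in 25 from the trastuzumab array, while the pertuzumab array differed in 176 from the untreated and in 228 from the trastuzumab array. With 1 array each, an effect of pertuzumab alone and a property of that array or culture cannot be told apart, and each difference from the pertuzumab array given below holds both.

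Past 2-fold, more transcripts were higher than lower once trastuzumab was added to pertuzumab, whereas by any amount 13106 were higher and 16073 lower. In the combination array 130 of 29700 transcripts (0.438%) were 2-fold or more higher than in the pertuzumab array and 31 (0.104%) were 2-fold or more lower. The differences over all transcripts had a median of -0.03 and an SD of 0.261 on the log2 scale, and they ran from -1.57 to 1.97. Without pertuzumab, the addition of trastuzumab gave 14 transcripts higher (0.0471%) and 15 lower (0.0505%) at the same threshold. The excess of higher transcripts was concentrated among brighter ones. Of 14503 transcripts with a mean log2 signal of at least 6 over the 2 arrays, 73 were 2-fold higher and 2 were 2-fold lower with the combination, whereas trastuzumab against untreated gave 0 in either direction among 14480.

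**Figure D1:**
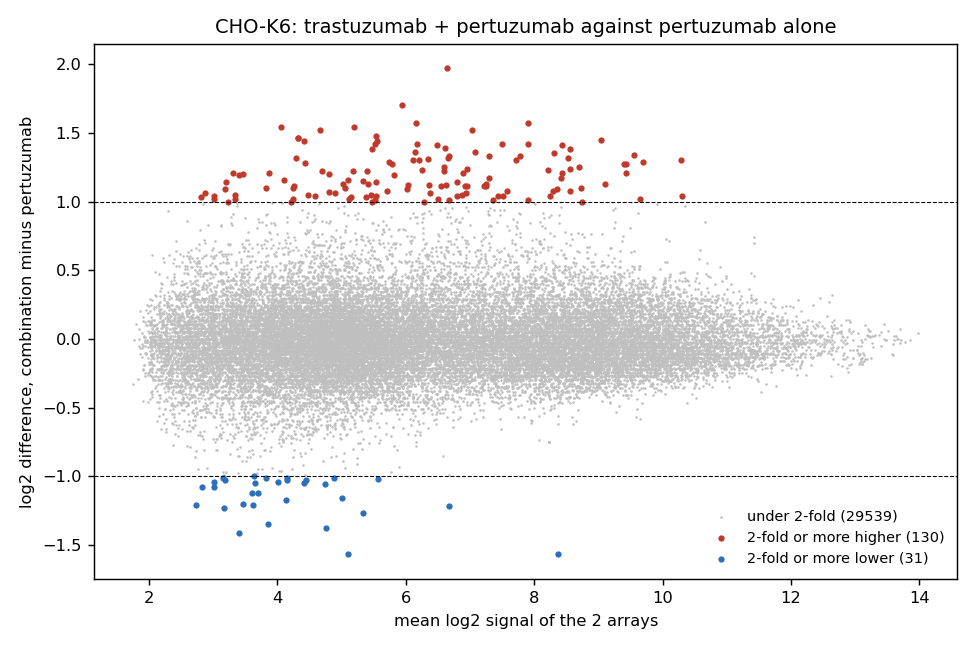
Log2 difference between the combination and the pertuzumab array of CHO-K6 (vertical axis) against the mean log2 signal of these 2 arrays (horizontal axis), 1 point per transcript. The 130 transcripts that were 2-fold or more higher lie across the signal range, while the 31 that were 2-fold or more lower are mostly dim, and dashed lines mark 2-fold.

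Most of the 130 higher transcripts carry no gene symbol in the array annotation. That held for 112 of them (86.2%), against 41.8% of all transcripts. The other 18 had exactly 1 symbol, of which 8 were provisional LOC names and 10 belonged to 9 characterised genes. Likewise, 25 of the 31 lower transcripts (80.6%) had no symbol, 5 had LOC names and 1 belonged to a characterised gene. The median log2 signal was 6.27 for the higher and 3.86 for the lower set, against 5.9 for all transcripts. Thus, the lower set lay mainly among dim transcripts, where the trastuzumab and untreated arrays also differed most. With transcripts ordered by signal in 10 groups, 95% differed by up to 0.52 between those arrays in the dimmest group and by up to 0.20 in the brightest. The largest difference of all belonged to a transcript with no symbol. Its log2 signal was 7.95 untreated, 7.92 with trastuzumab, 5.66 with pertuzumab and 7.63 with the combination, and in CHO-K1 it was 6.77 untreated and 5.20 with the combination. The strongest opposite case among brighter transcripts also had no symbol and was at 7.11 untreated, 7.22 with trastuzumab, 9.15 with pertuzumab and 7.58 with the combination. In each of these transcripts the pertuzumab array was the odd value among the CHO-K6 arrays.

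The position of the untreated and trastuzumab arrays, which were not used to choose the transcripts, was then described. The choice itself sets pertuzumab low and the combination high in the higher set, and the reverse in the lower set, so the order of the 4 arrays is given as a description. Transcripts that differed by any amount are given beside it, and they are not matched to the 2-fold threshold. Of the 130 higher transcripts, 127 (97.7%) had their lowest CHO-K6 value in the pertuzumab array, whereas this was so for 63.0% of all 13106 transcripts that were higher with the combination by any amount. The combination was the highest of the 4 arrays in 30 of the 130, against 5005 of all 13106 transcripts above 0. In 122 of the 130, the mean of the untreated and trastuzumab arrays was nearer to the combination than to pertuzumab, as it was in 63.2% of all transcripts above 0. The median levels of the 130 were 6.84 untreated, 7.08 with trastuzumab, 5.65 with pertuzumab and 6.90 with the combination. The untreated and trastuzumab medians were thus close to that of the combination. All 73 brighter members of the set had their lowest value with pertuzumab, and all 73 lay nearer to the combination in the untreated and trastuzumab arrays, against 76.1% and 76.5% of brighter transcripts above 0.

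In the 31 lower transcripts, pertuzumab was the highest of the 4 arrays in 30 of them (96.8%), against 70.5% of all transcripts that were lower with the combination by any amount. The combination was at the same time the lowest of the 4 in 27, against 5424 of 16073 transcripts below 0. The mean of the untreated and trastuzumab arrays lay nearer to the combination in 19 (61.3%), against 70.4% of those. Their median levels were 3.83 untreated, 3.87 with trastuzumab, 4.53 with pertuzumab and 3.32 with the combination. Of the 31, 29 were dim.

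The difference made by trastuzumab with and without pertuzumab was compared for each transcript. Across the 29700 transcripts the differences correlated with a Pearson r of 0.045, and across the 14481 with a mean log2 signal of at least 6 over the 4 CHO-K6 arrays r was 0.06. These are descriptions across transcripts, which are not independent and come from the same 4 arrays. For 183 transcripts (0.616%) the trastuzumab difference was 2-fold or more above with pertuzumab compared with that without, and for 98 (0.33%) it was 2-fold or more below. Among the brighter ones these counts were 62 and 8. The 130 higher transcripts had a median trastuzumab difference of 1.165 with pertuzumab and of 0.17 without it, where 97 were above 0 and 32 below. Over all 13106 transcripts above 0, the median without pertuzumab was 0.00, with 6495 above 0 and 6270 below. For the 73 brighter members of the set this median was 0.19, and 62 of them lay above 0 and 10 below. Over all 6404 brighter transcripts above 0 it was 0.01, with 3411 above 0 and 2786 below. Most of the 130 were thus also higher with trastuzumab alone. Because they were chosen for a 2-fold difference with pertuzumab, the smaller amount without it follows largely from the choice.

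**Figure D2:**
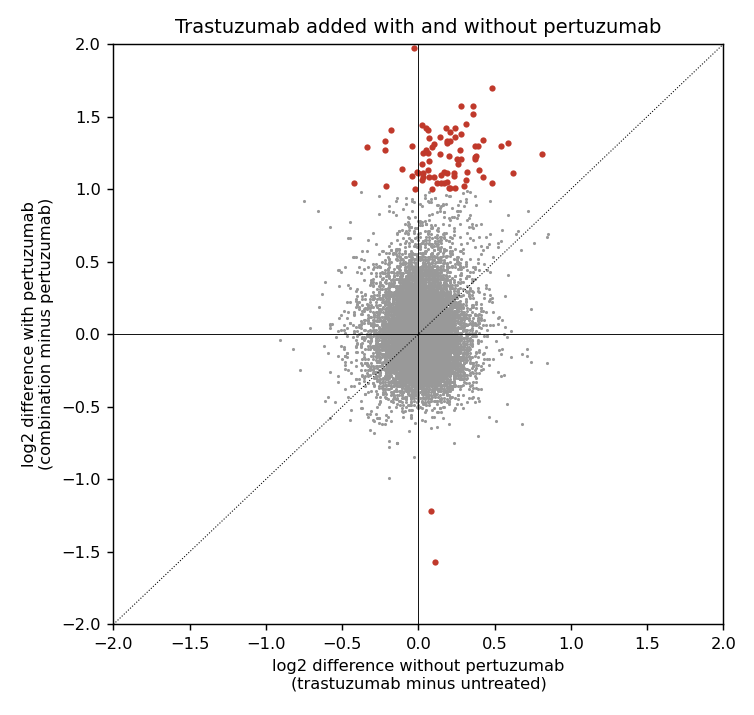
Log2 difference with trastuzumab added to pertuzumab (vertical axis) against that with trastuzumab added to untreated cells (horizontal axis) for CHO-K6 transcripts with a mean log2 signal of at least 6 over the 4 arrays. Red points were chosen as 2-fold or more different with pertuzumab present, which sets them far from 0 on the vertical axis. On the horizontal axis they lie mostly to the right of 0, and the dotted line marks equal differences.

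The CHO-K1 arrays, which share no array with the comparison, were examined for the same transcripts. Of the 130, 108 (83.1%) were lower in CHO-K1 with the combination than in untreated CHO-K1, against 60.5% of all transcripts above 0, and the median difference was -0.565. Among the 73 brighter ones, 71 (97.3%) were lower there with a median of -0.65, against 74.5% of brighter transcripts above 0. In the parental line, most of these transcripts were therefore lower with the combination than without antibody. The pertuzumab value of CHO-K6 lay below the untreated CHO-K1 value in 104 of the 130, against 8525 of all 13106 transcripts above 0. Unlike the counts before it, this count uses the pertuzumab array, which the choice of the 130 itself sets low. CHO-K1 with a single antibody was not analysed here.

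Among characterised genes with a mean log2 signal of at least 6, the 15 transcripts with the highest difference ran from 0.77 to 1.06 on the log2 scale. They are described below by the known role of each gene, with no test of any shared role. In all 15, which were chosen for this difference, the pertuzumab array was the lowest of the 4 CHO-K6 arrays, as it was in 76.1% of all brighter transcripts above 0. The trastuzumab difference without pertuzumab was between -0.26 and 0.22 in these transcripts. Over all 9168 transcripts of this kind, 59 were 1.5-fold or more higher and 4 were 1.5-fold or more lower, and 3 and 0 reached 2-fold.

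Several of the 15 act in splicing. Clk1, a kinase that phosphorylates SR splicing factors, was at 8.88 untreated, 8.80 with trastuzumab, 7.81 with pertuzumab and 8.71 with the combination (difference 0.90), and in CHO-K1 at 8.24 untreated and 8.06 with the combination. Its other transcript differed by 0.53. Prpf4b, a kinase of the spliceosome, was at 9.20, 9.13, 8.29 and 9.06 in the same order of CHO-K6 arrays (difference 0.77), and at 8.50 and 8.18 in CHO-K1. Thus the pertuzumab array was low by a similar amount against each of the other CHO-K6 arrays in both kinases. Prpf39, a factor associated with the U1 small nuclear ribonucleoprotein, was at 8.11, 8.07, 6.99 and 7.84 (difference 0.85), and its brighter transcript differed by 0.74. Rbm41, an RNA-binding protein, was at 8.15, 8.16, 7.40 and 8.17, so that 3 arrays were within 0.02 of each other.

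Other members belong to RNA metabolism and ribosome production. Taf1d, a subunit of the selectivity factor of RNA polymerase I and a host of small nucleolar RNAs in mammals, was at 9.96 untreated, 9.82 with trastuzumab, 8.75 with pertuzumab and 9.69 with the combination (difference 0.94), and at 9.08 and 8.66 in CHO-K1. Mphosph6, an exosome-associated protein of ribosomal RNA processing, was at 7.22, 7.07, 6.20 and 7.12 (difference 0.92). Zcchc7, a zinc knuckle protein of nuclear RNA surveillance, was at 6.85, 6.83, 5.78 and 6.78 (difference 1.00), and its other transcript differed by 0.27. In CHO-K1, Zcchc7 was near the pertuzumab value of CHO-K6 in both arrays, at 5.87 untreated and 5.82 with the combination.

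Regulators of transcription and modifiers of proteins were also among the 15. Mdm4, an inhibitor of p53, was at 8.09 untreated, 8.25 with trastuzumab, 7.02 with pertuzumab and 7.92 with the combination (difference 0.90), and at 7.20 and 6.77 in CHO-K1. Spopl, a substrate adaptor of cullin-3 ubiquitin ligases, was at 6.83, 6.98, 5.83 and 6.71 (difference 0.88), and its brighter transcript differed by 0.65. Zbed6, a transcriptional repressor derived from a DNA transposon, was at 9.53, 9.75, 8.84 and 9.65 (difference 0.81). Purg, a nucleic acid-binding protein of the Pur family, differed by 0.95 and was the member with the lowest trastuzumab difference of the set, -0.26 without pertuzumab. Naa16, an auxiliary subunit of an N-terminal acetyltransferase, had 4 transcripts, which all pointed the same way with differences of 0.45 to 0.84.

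The remaining 3 of the 15 have other roles. Oxr1, which protects cells against oxidative damage, had the highest difference of the characterised brighter transcripts and was at 7.29 untreated, 7.31 with trastuzumab, 6.41 with pertuzumab and 7.47 with the combination (difference 1.06, or 2.08-fold). In CHO-K1 it was at 7.64 untreated and 6.56 with the combination, a difference of -1.08. Its other transcripts differed by 0.35 and 0.19 in CHO-K6. The transcript named Plcxd3, whose RefSeq record is a long non-coding RNA, was at 9.25, 9.34, 8.25 and 9.25 (difference 1.00), whereas the second transcript of that name differed by -0.30. Plekhn1 was at 6.94, 6.90, 5.89 and 6.82, with differences of 0.93 and 0.53 in its transcripts. All Oxr1 transcripts were thus higher with the combination, by unequal amounts, while those of Plcxd3 differed in sign. In CHO-K1 all 15 transcripts were lower with the combination than untreated, against 74.5% of brighter transcripts above 0. In untreated CHO-K1, 14 of the 15 were lower than in untreated CHO-K6, Oxr1 being the exception. The share of all transcripts for which this holds was not computed. Just outside the 15 were a second transcript of Prpf39 and Smarcad1, a chromatin remodeller, with differences of 0.74 each.

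**Figure D3:**
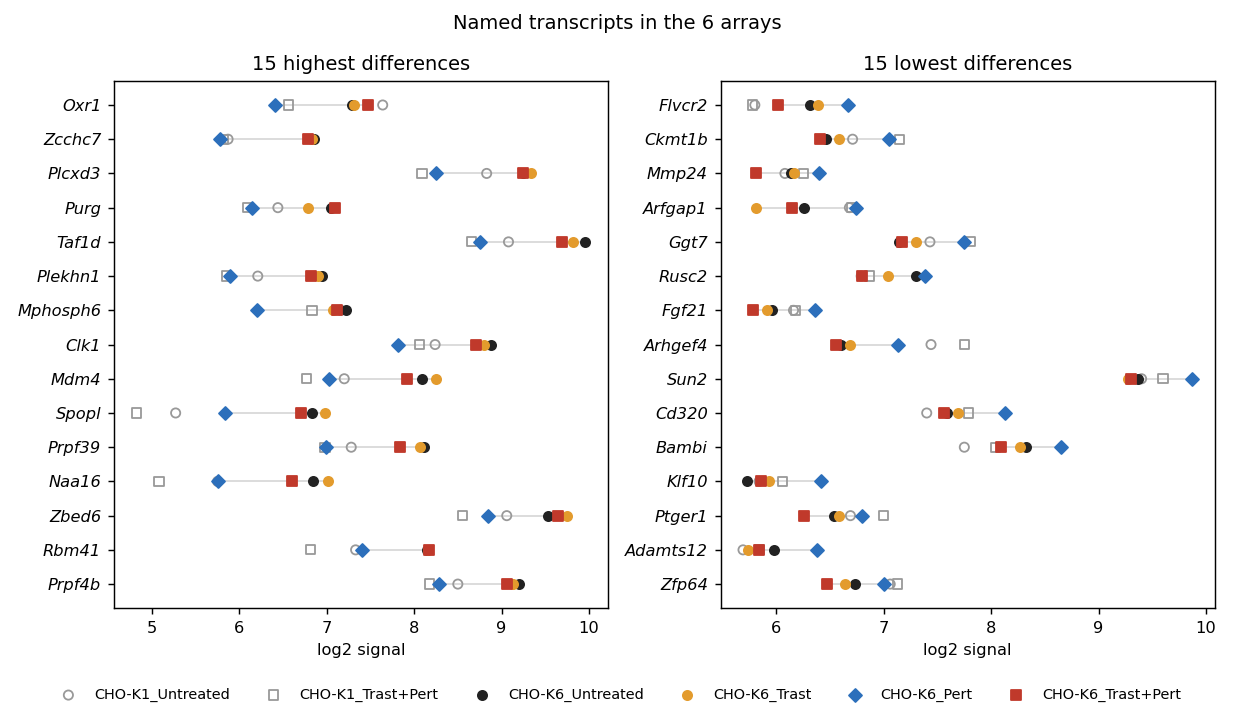
Log2 signals of the 15 characterised brighter transcripts with the highest (left) and the 15 with the lowest (right) difference between the combination and pertuzumab, in all 6 arrays, with 1 symbol per array and grey lines spanning the CHO-K6 arrays. Pertuzumab (blue diamonds) is the lowest CHO-K6 array in all 15 on the left and the highest in all 15 on the right.

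Characterised genes that passed 2-fold at lower signals included Cd46, a membrane regulator of complement. One of its transcripts was at 4.59 untreated, 3.68 with trastuzumab, 3.28 with pertuzumab and 4.82 with the combination, a difference of 1.54 (2.91-fold). Without pertuzumab, trastuzumab went with a lower level of this transcript by 0.91. A second Cd46 transcript was at 6.01, 6.21, 4.50 and 5.60 (difference 1.10) and the third and brightest at 6.15, 6.79, 5.45 and 6.14 (difference 0.69), and these were 0.20 and 0.64 higher with trastuzumab than untreated. The transcripts of Cd46 were thus alike in being lowest with pertuzumab and unlike in the trastuzumab array. Zfp62, a zinc finger protein, was at 6.51, 6.29, 5.15 and 6.42 (difference 1.27), and its brighter transcript differed by 0.46.

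The other 2-fold differences at lower signals were each found in a single transcript of the gene. Pdk4, a kinase that inhibits the pyruvate dehydrogenase complex, was at 5.76, 5.79, 4.93 and 5.98 in its dimmest transcript (difference 1.05), whereas its brighter transcripts differed by 0.18 and 0.00. Dst, a cytoskeletal linker of the plakin family, differed by 1.03 in its dimmest transcript and by 0.15 to 0.55 in 3 others. Cfap92, named as a cilia- and flagella-associated protein, was at 5.45, 5.27, 4.36 and 5.42 (difference 1.06), and Tmed6, of a family of cargo receptors between endoplasmic reticulum and Golgi, at 4.60, 5.15, 4.07 and 5.11 (difference 1.04). Tmed6 was also higher with trastuzumab alone, by 0.55, and the other Cfap92 transcript differed by 0.51. The single characterised gene that was 2-fold lower was Fam167a, at 5.82 untreated, 5.86 with trastuzumab, 6.07 with pertuzumab and 5.05 with the combination (difference -1.02). Here the combination, and not pertuzumab, was the odd value.

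The 15 brighter transcripts with the lowest difference were less far from 0, between -0.65 and -0.53, and 0 of them reached 2-fold. Pertuzumab was the highest of the CHO-K6 arrays in all 15, against 79.8% of all brighter transcripts below 0. The combination was the lowest in 10 of the 15, against 1962 of those 7852 transcripts. The 15 were chosen for this difference, which itself sets pertuzumab high and the combination low. The transcripts below 0 are not matched to them in size of difference, so both counts are descriptions only. The trastuzumab difference without pertuzumab ranged from -0.45 to 0.20. In CHO-K1, 14 of the 15 were higher with the combination than untreated, against 5734 of 7852 brighter transcripts below 0. Flvcr2 was the exception at -0.02.

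Membrane and secreted proteins made up the first group of this set. Bambi, a pseudoreceptor that dampens TGF-beta signalling, was at 8.32 untreated, 8.27 with trastuzumab, 8.65 with pertuzumab and 8.09 with the combination (difference -0.56), and at 7.75 and 8.04 in CHO-K1. Cd320, the cellular receptor for transcobalamin-bound vitamin B12, was at 7.59, 7.69, 8.13 and 7.56 (difference -0.57), and its brighter transcript differed by -0.40. Flvcr2, a transporter of the major facilitator superfamily, had the lowest difference of the set, -0.65, at 6.31, 6.39, 6.67 and 6.02. In Cd320 the combination lay close to the untreated array, whereas in Bambi and Flvcr2 it was further below all other CHO-K6 arrays. The membrane-anchored metalloproteinase Mmp24 (-0.59), the gamma-glutamyltransferase family member Ggt7 (-0.58), the hormone Fgf21 (-0.58), the prostaglandin E2 receptor Ptger1 (-0.54) and the secreted metalloproteinase Adamts12 (-0.54) completed this group, and the other Adamts12 transcript differed by 0.27.

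Intracellular proteins made up the rest. Sun2, a nuclear envelope protein that links the nucleus to the cytoskeleton, was the brightest of the set, at 9.37 untreated, 9.27 with trastuzumab, 9.87 with pertuzumab and 9.30 with the combination (difference -0.57). Klf10, a TGF-beta-inducible transcription factor, was at 5.73, 5.93, 6.42 and 5.86 (difference -0.56), and its dimmer transcript differed by 0.03. Arfgap1, an activator of GTP hydrolysis by the small GTPase Arf1, was at 6.26, 5.81, 6.74 and 6.15 (difference -0.59), and was lower by 0.45 with trastuzumab in the absence of pertuzumab. Sun2 and this Klf10 transcript thus were near the same level in all CHO-K6 arrays but pertuzumab, which was not so for this Arfgap1 transcript. The brighter Arfgap1 transcript was near the same level in all but pertuzumab, at 9.67, 9.66, 9.92 and 9.68 (difference -0.24). The mitochondrial creatine kinase Ckmt1b (-0.64), Rusc2 (-0.58), the guanine nucleotide exchange factor Arhgef4 (-0.57) and the zinc finger protein Zfp64 (-0.53) were the others. The brightest Zfp64 transcript differed by 0.00, and the dimmer Arhgef4 transcripts by 0.20 and -0.09. Just outside the set were Trappc6a and B4galt2 with -0.52 each.

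To describe pathways, each gene was taken by its brightest transcript, and 36 lists of genes were summarized. Over all 14899 genes with 1 symbol, the median difference between the combination and pertuzumab was -0.04, with 40.6% of genes above 0 and 57.5% below. At 1.5-fold, 127 genes were higher (0.852%) and 112 lower (0.752%). The medians of the lists ran from -0.13 to 0.33, 28 below 0 and 8 above, and 0 members reached 2-fold. Without pertuzumab, the medians of the same lists for the trastuzumab difference stayed between -0.08 and 0.08.

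Lists of nuclear RNA-binding and zinc finger proteins had the highest medians. The list of zinc finger factors, with or without the repressive KRAB domain, had a median of 0.33, with 12 of 14 measured genes above 0 and 2 below. Which of the measured genes carry that domain was not examined. All 12 genes above 0 had their lowest CHO-K6 value with pertuzumab, beside 76.1% of all brighter transcripts above 0. Like the others, this list was chosen with earlier results of these data known. Znf770 was at 9.25 untreated, 9.21 with trastuzumab, 8.63 with pertuzumab and 9.19 with the combination (difference 0.56), and Znf638 (0.53) and Znf518a (0.52) had the same form, whereas Znf319 differed by -0.30. The median of this list between the CHO-K1 arrays was -0.265, and that of trastuzumab against untreated CHO-K6 was 0.05.

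SR proteins and hnRNPs, which bind pre-mRNA and set splice site choice, had a median of 0.14, with 14 of 17 genes above 0 and 3 below. The largest difference was that of Srsf10, at 8.41 untreated, 8.33 with trastuzumab, 7.88 with pertuzumab and 8.26 with the combination (0.38), followed by Srsf6 (0.33). Trastuzumab against untreated gave a median of -0.08 for this list, so the trastuzumab difference had opposite signs with and without pertuzumab at the level of the medians. For pertuzumab against untreated the median of the list was -0.24, and for the combination against trastuzumab it was -0.01. The opposite signs were not tested. Splicing kinases and nuclear speckle proteins had a median of 0.095, with 9 of 14 above 0 and 4 below, and 2 of them, Prpf4b and Thoc2, were 1.5-fold higher. Thoc2, a subunit of the complex that couples transcription to mRNA export, was at 9.76, 9.66, 8.86 and 9.52 (difference 0.66). In contrast, the core of the spliceosome had a median of -0.08, with 8 of 22 above 0 and 14 below, and apart from Prpf39 its members lay between -0.25 and 0.33. The lists of splicing regulators and of core particles thus had medians of opposite sign, a difference that was not tested.

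Decay and production of RNA showed no common direction. RNA decay genes had a median of 0.015, with 14 of 26 above 0 and 12 below. Dcp2, the decapping enzyme (0.52), and Upf2, a nonsense-mediated decay factor (0.43), were on the upper side, while Smg9 (-0.28) and Upf1, the helicase of that pathway (-0.27), were on the lower side. Ribosome biogenesis and RNA polymerase I genes had a median of -0.045, with 10 of 24 above 0, of which Taf1d and Mphosph6 were 1.5-fold higher. Among 15 cytosolic ribosomal proteins the median was -0.01 and the range -0.14 to 0.24, and the sign of this median turned with quantile normalization and with the mean.

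**Figure D4:**
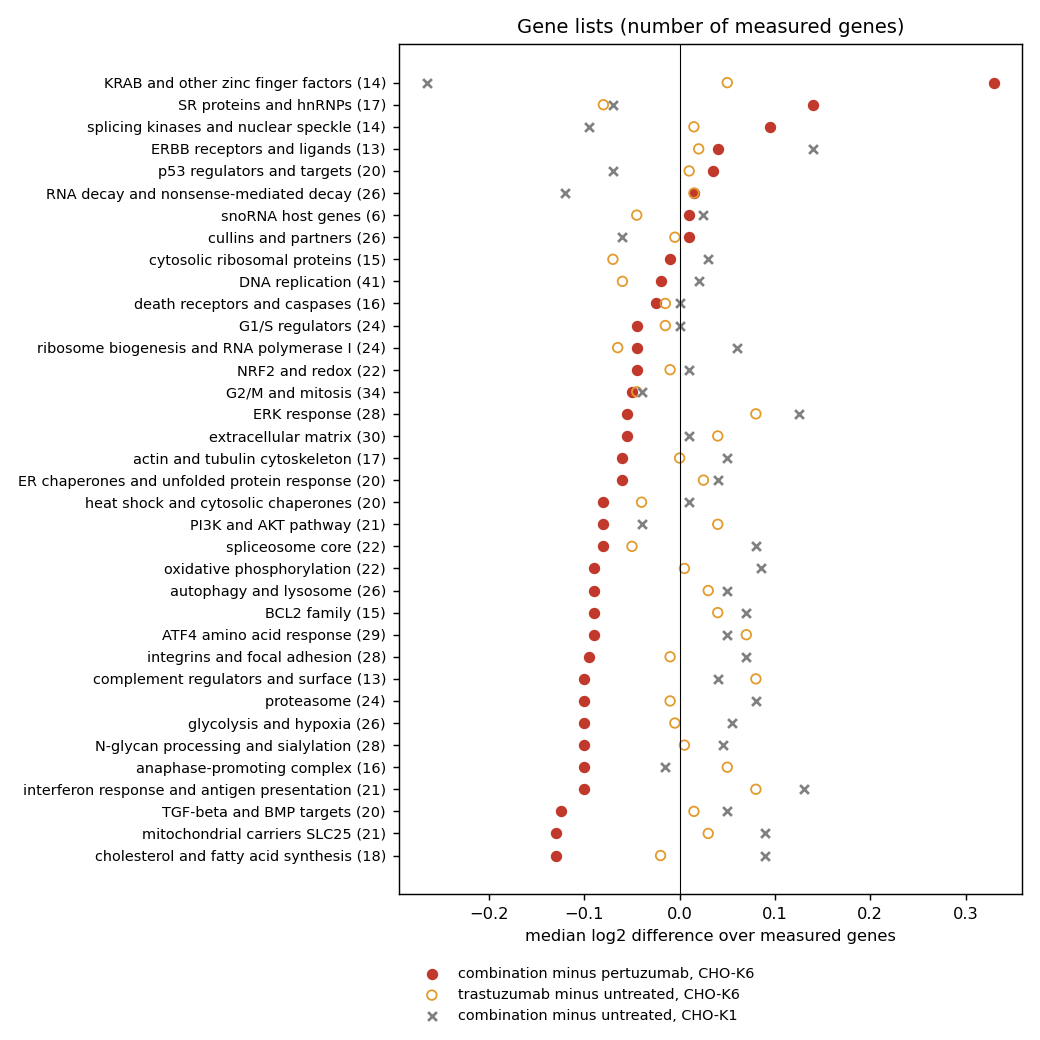
Median log2 difference over the measured genes of 36 lists (number in parentheses) for the combination against pertuzumab in CHO-K6 (red), trastuzumab against untreated CHO-K6 (orange circles) and the combination against untreated CHO-K1 (crosses), ordered by the first. The red points run from -0.13 to 0.33 and zinc finger factors lie apart at the upper end, while the orange circles stay between -0.08 and 0.08.

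The HER2 pathway itself showed small differences. Hamster Erbb2 was at 9.01 untreated, 8.80 with trastuzumab, 9.21 with pertuzumab and 9.01 with the combination, so that trastuzumab went with a lower value by 0.20 with pertuzumab and by 0.21 without it. In CHO-K1 it was at 8.50 untreated and 8.64 with the combination. How far the human HER2 transcript of CHO-K6 is read by these hamster probes was not tested. Egfr, a partner of HER2, stayed dim at 5.31 with pertuzumab and 5.38 with the combination. Of the ligands of the family, Ereg (epiregulin) was at 9.15, 9.27, 8.73 and 9.23 (difference 0.50) and Areg (amphiregulin) at 7.71, 7.51, 7.65 and 7.76 (difference 0.11), both well above CHO-K1, where Ereg was at 6.70 and Areg at 5.73 untreated. Shc1, an adaptor of activated receptors, was at 9.68, 9.89, 10.14 and 9.81 (difference -0.33). The 13 measured receptors, ligands and adaptors had a median of 0.04, with 7 above 0 and 6 below, and the sign turned when dim members were left out or when all transcripts of a gene were averaged.

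According to the paper, PI3K/AKT and MAPK signalling downstream of HER2 does not work in CHO-K6. The PI3K and AKT list had a median of -0.08, with 9 of 21 genes above 0 and 12 below. Rictor, the defining subunit of mTOR complex 2, was at 9.36 untreated, 9.47 with trastuzumab, 8.88 with pertuzumab and 9.41 with the combination (difference 0.53). The subunit of the other complex, Rptor, differed by -0.27 and the kinase Mtor by -0.24. Genes induced by ERK had a median of -0.055, with 8 of 28 above 0 and 19 below, beside 0.08 for trastuzumab without pertuzumab. Dusp1 is a phosphatase that inactivates MAP kinases and an immediate early gene. It was at 9.45 untreated, 10.16 with trastuzumab, 9.97 with pertuzumab and 9.87 with the combination. Its trastuzumab difference was -0.10 with pertuzumab and 0.71 without it. The untreated array was the lowest of the CHO-K6 arrays, and pertuzumab alone was 0.52 above it. Klf10 (-0.56) and Fosb (-0.37) were the lowest of the list and Spred1, an inhibitor of the pathway, the highest (0.20).

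Cell cycle genes were close to the median of all genes. G1/S regulators had a median of -0.045 (9 of 24 above 0, 14 below), DNA replication genes -0.02 (16 of 41 above, 24 below) and genes of G2/M and mitosis -0.05 (13 of 34 above, 21 below), and 0 of these genes reached 1.5-fold. Cdkn1a, an inhibitor of cyclin-dependent kinases and a target of p53, was at 8.83 untreated, 9.02 with trastuzumab, 9.41 with pertuzumab and 9.04 with the combination (difference -0.37). E2f1, a transcription factor of S phase entry, was at 8.70, 8.59, 9.04 and 8.70 (difference -0.34), and Mcm5, of the replicative helicase, at 10.16, 10.06, 10.50 and 10.15 (difference -0.35). On the other side, Cenpf, a kinetochore protein, was at 9.71, 9.89, 9.35 and 9.69 (difference 0.34) and Ttk, a spindle checkpoint kinase, at 10.90, 10.86, 10.48 and 10.77 (difference 0.29). In each of these genes the combination lay nearer to the untreated array than to pertuzumab.

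Genes of p53 and of cell death differed in both directions. The p53 list had a median of 0.035, with 12 of 20 above 0 and 8 below, and besides Mdm4 the highest were the death receptor Fas, at 7.99 untreated, 8.12 with trastuzumab, 7.41 with pertuzumab and 7.97 with the combination (difference 0.56), and Ccng1, cyclin G1 (0.47). Death receptors and caspases had a median of -0.025, with 7 of 16 above 0 and 9 below. Xiap, an inhibitor of caspases, was higher by 0.48 and Cflar, an inhibitor of caspase-8, by 0.28, while the receptor adaptors Traf2 (-0.29), Fadd (-0.27) and Tradd (-0.26) were lower. The BCL2 family had a median of -0.09 with 5 of 15 above 0, and ran from -0.20 for the effector Bak1 to 0.24 for the anti-apoptotic Mcl1. Autophagy and lysosome genes had the same median, with Atg3 at 0.38 and the initiating kinase Ulk1 at -0.28.

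Ubiquitin ligase subunits were spread likewise. Among 26 cullins and partners the median was 0.01, with 13 above 0 and 11 below, and Spopl (0.65), Dcun1d1, which promotes neddylation of cullins (0.43), Cul5 (0.34) and Cul2 (0.33) were the highest, while Cul7 was the lowest at -0.26. Subunits of the anaphase-promoting complex had a median of -0.10, and proteasome subunits also had a median of -0.10, with 16 of 24 below 0. These ranges overlapped those of most other lists.

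Metabolic and secretory lists had medians below that of all genes. Cholesterol and fatty acid synthesis had a median of -0.13, with 3 of 18 above 0 and 15 below. The lowest members were Pmvk, a kinase of the mevalonate pathway, at 8.15 untreated, 7.92 with trastuzumab, 8.41 with pertuzumab and 8.01 with the combination (-0.40), and Mvd of the same pathway (-0.36), while Insig1, which retains the sterol sensor in the endoplasmic reticulum, was at 0.30. Mitochondrial carriers of the SLC25 family also had a median of -0.13, with 7 of 21 above 0. Oxidative phosphorylation had a median of -0.09 (5 of 22 above 0, 16 below), and glycolysis and hypoxia -0.10 (9 of 26 above, 16 below), where the aldolase Aldoc (-0.63) was the single gene of the lists that was 1.5-fold lower, at a dim 5.19 with pertuzumab and 4.56 with the combination. The ATF4 amino acid response was at -0.09 (7 of 29 above, 21 below), in which the cystine transporter Slc7a11 was at 8.82, 8.99, 8.48 and 8.84 (difference 0.36) and Ddit4, an inhibitor of mTOR complex 1, at -0.34.

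Lists of the cell surface and its signals were also on the lower side. TGF-beta and BMP targets had a median of -0.125, with 5 of 20 above 0 and 15 below. Below Bambi followed Pmepa1 (-0.44), Tgfb3 (-0.37) and the inhibitory Smad6 (-0.36), whereas Skil, a repressor of SMAD proteins, was at 0.40. The interferon response and antigen presentation list had a median of -0.10 (6 of 21 above, 15 below), with the peptide transporter Tap1 at -0.30 and the RNA sensor Ifih1 at 0.29. Integrins and focal adhesion had a median of -0.095, with 6 of 28 above 0 and 22 below, and extracellular matrix -0.055, with 8 of 30 above 0 and 22 below, Col4a1 being lowest at -0.43. N-glycan processing and sialylation had a median of -0.10, with 6 of 28 above 0. In that list Cmah, which converts the sialic acid Neu5Ac to Neu5Gc, was 1.5-fold higher, at 7.27 untreated, 7.13 with trastuzumab, 6.63 with pertuzumab and 7.32 with the combination (difference 0.69), and at 4.49 and 5.02 in CHO-K1.

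The median difference also varied with the length of the gene in the genome. Of 10072 transcripts with 1 symbol and a mean log2 signal of at least 6, 99.6% had a gene length in the RefSeq annotation of the assembly CriGri-PICRH-1.0, and the 9952 protein-coding ones were ordered by length in 10 groups. The median difference between the combination and pertuzumab was -0.11 in the group of the shortest genes (0.2 to 4.3 kb) and 0.03 in that of the longest (123.4 to 1920.9 kb), and it was higher in each next group or equal to the one before. For trastuzumab against untreated the medians were 0.01 and 0.06 in these groups. Between the CHO-K1 arrays, which share none with the comparison, they were 0.09 and -0.06. The comparisons that share an array with it gave 0.15 and -0.01 for pertuzumab against untreated and 0.04 and -0.04 for the combination against trastuzumab. Transcripts that were 1.5-fold higher (73 of the 9952) had a median gene length of 43.9 kb, against 24.0 kb for all and 16.7 kb for the 5 that were 1.5-fold lower.

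**Figure D5:**
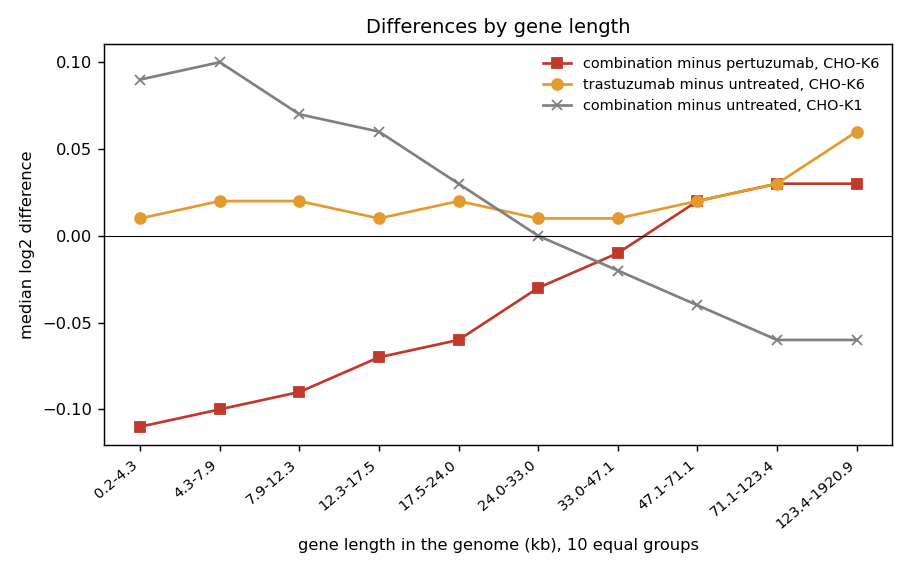
Median log2 difference (vertical axis) in 10 groups of protein-coding transcripts ordered by gene length in kb (horizontal axis), for 3 comparisons that share no array. The combination against pertuzumab rises from -0.11 in the shortest to 0.03 in the longest genes, the CHO-K1 comparison goes from 0.09 to -0.06, and trastuzumab against untreated stays between 0.01 and 0.06.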

How the data were processed

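The 6 arrays (Affymetrix CHO Gene ST, 1 per condition) had been summarized by the authors as log2 bi-weight average signals with the Transcriptome Analysis Console. The submitters' processing notes also name the Affymetrix Expression Console. The normalization is not given in the sources used here. The deposited log2 values were used unchanged, as differences between arrays, and 2-fold counted as higher or lower. Another deposited table holds 30934 transcripts. The table used here holds 29700, of which 16481 had 1 gene symbol, 793 several and 12426 none, and 16394 were matched to RefSeq.

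Among transcripts with 1 characterised symbol and a mean log2 signal of 6 or more over both arrays, the 15 highest and 15 lowest differences were named, with every characterised transcript past 2-fold and the extreme members of each list. The comparison and all lists were chosen with earlier results of these data known. Alternatives were quantile normalization, a signal filter, a 1.5-fold threshold, the other table, transcripts with 1 symbol and other list summaries. Calculations were tested on simulated data. Python 3.11.15, NumPy 2.4.6, pandas 2.3.3 and matplotlib 3.10.9 were used.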

Additional observations from a re-analysis of the deposited data

Results flagged for a closer look

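In 3 transcripts of characterised genes, trastuzumab went with opposite differences of 1.5-fold or more with and without pertuzumab. With 1 array per condition the difference between the differences was not tested. The Cd46 transcript described above differed by 1.54 with pertuzumab and by -0.91 without it. Ms4a15, of a family of membrane proteins, differed by -0.68 with pertuzumab and by 0.65 without it, at 4.65 untreated, 5.30 with trastuzumab, 5.59 with pertuzumab and 4.91 with the combination. Map3k7cl differed by -0.60 with pertuzumab and by 0.79 without it, at 3.26, 4.05, 3.92 and 3.32. All are dim. Over all transcripts there were 25 such cases, with a median log2 signal of 4.01, and 3 of them had a signal of 6 or more.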

How the results depend on the processing

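The count of higher transcripts, 130, became 86 with a signal of at least 6 in 1 of the compared arrays or both, 665 at 1.5-fold, 253 in the other deposited table and 18 among transcripts with 1 symbol. The count of lower transcripts, 31, became 3, 379, 113 and 6 under the same settings. Quantile normalization gave 132 and 26, and shared 151 of the 161 calls. Against the mean of the untreated and trastuzumab arrays in place of pertuzumab, an alternative chosen after seeing the data, 4 transcripts were higher and 8 lower with the combination. Of 1234 transcripts found only in the other table, 126 were higher and 83 lower, against 130 and 31 of the 29700 used here. In that group, 0 transcripts had a symbol. The 183 and 98 differences of differences became 75 and 10 among transcripts with a signal of at least 6 in any CHO-K6 array. All 38 named transcripts kept their direction with quantile normalization and in the other table, moving by at most 0.04. Of the list medians, ribosome biogenesis turned to 0.047 with the mean of its members, cytosolic ribosomal proteins to 0.011 with the mean and to 0.016 with quantile normalization, and ERBB receptors and ligands to -0.15 among brighter members and to -0.045 with all transcripts of a gene averaged. The snoRNA host genes had a median of 0.01 and a mean of 0.135. The cause was not tested, except that the filters test fewer transcripts. No paired analysis was possible because each condition has 1 array with no replicate number. The number of arrays limits the precision of every value, and no spread between replicates could be given.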
